A study of Mus musculus with 20 samples.

Results

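The utricles of ovariectomized mice that carried a raloxifene pellet (OVX + RAL group) were compared with those of ovariectomized mice that carried a vehicle pellet (OVX + v group). The libraries were chosen by their labels alone, 5 in each group, which is 10 of the 20 libraries of the series. Of 25655 genes listed, 3914 had at least 10 counts in each of the 10 libraries, and these were the genes tested. All mice were C57BL/6J females operated at 8 weeks of age, and the ovaries had been removed in both groups compared. The OVX + RAL group received 2.4 mg of raloxifene as a subcutaneous pellet for release over 60 days, and the OVX + v group received a pellet without drug. The utricles were taken 4 weeks after the operation, and 1 ng of total RNA went into each 3′ mRNA library. The other libraries were from OVX mice with a pellet of 50 µg of estradiol for the same 60 days (OVX + E2 group) and from sham-operated mice with a vehicle pellet (sham + v group). The labels do not say how many animals are behind a library, so that the p-values measure the spread between these libraries. Replicates are named by the library numbers of the labels, 6 to 10 for OVX + v and 16 to 20 for OVX + RAL, and values per library are given in that order.

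Raloxifene is a selective estrogen receptor modulator. It binds the estrogen receptors and acts as an agonist in bone and as an antagonist in the breast, because the receptor recruits different coactivators and corepressors in different tissues. Ovariectomy removes the main source of estradiol. The study did not measure serum estradiol, and its authors took the OVX mice to be deprived of it from uterus weight and bone mineral density. The utricle is the vestibular organ that senses linear acceleration and gravity. Its hair cells carry bundles under a gelatinous otolithic membrane loaded with otoconia, and supporting cells, dark cells, fibrocytes, nerve fibers and Schwann cells surround them.

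The total count of a library was 1702313 to 2081747 in the OVX + RAL group and 1435156 to 2019032 in the OVX + v group, a difference within the spread (exact permutation test, two-sided, *p* = 0.111). Between 10004 and 10694 genes had a count in a library. The tissue label was checked against markers. *Otog*, a glycoprotein of the otolithic membrane, lay between 1049 and 3535 CPM, and *Pou4f3*, a transcription factor of hair cells, between 81.6 and 353 CPM. *Oc90*, the main otoconial protein during development, was low in these adult libraries, at 8.69 ± 11.9 CPM in OVX + v and 4.63 ± 9.77 CPM in OVX + RAL (SD, n = 5 each). Defining genes of mucosal secretory cells, skeletal muscle, red blood cells and melanocytes were present in both groups. The summed CPM of the mucosal list was 278 to 2243 in OVX + RAL and 142 to 1012 in OVX + v, with 10 of 23 genes at 0 in all 10 libraries.

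Single libraries of both groups stood apart. OVX + RAL replicate 16 carried the first principal component of log2 CPM, which held 15.4% of the variance, with a loading of 0.871. The second component, with 12.3% of the variance, was carried by OVX + v replicate 6, with a loading of 0.742, and the third, with 11.6%, by OVX + v replicates 8 and 9, with loadings of 0.74 and −0.574. In OVX + RAL replicate 16, the 10 most abundant genes took 19.6% of the counts, against 14% to 16.3% in the other OVX + RAL libraries. Its lipophilic carrier genes, led by the prostaglandin D synthase *Ptgds*, summed to 111638 CPM, against 57122 to 73507 CPM in the other 4. Its 13 mitochondrial transcripts summed to 64198 CPM, against 93053 to 118824 CPM. OVX + RAL replicates 16 and 17 held 19637 and 19944 CPM of *S100b*, a calcium-binding protein abundant in Schwann cells, against 5789 to 10189 CPM in the other 8 libraries. The Schwann cell list summed to 23684 and 24813 CPM in this pair, against 11069 to 15722 CPM in the other 8. OVX + RAL replicate 17 also held the highest level of most interferon-stimulated genes, described further on. The fold changes of single genes and the list medians were also computed with each library left out, and the list counts without OVX + RAL replicates 16 and 17 in turn. Spearman's correlation over the genes tested, given as a description, was 0.611 to 0.723 between libraries of the same group and 0.632 to 0.714 between libraries of different groups.

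No gene passed an adjusted *p* of 0.05 (quasi-likelihood test of edgeR, Benjamini-Hochberg adjustment). The number of genes called was 0 higher and 0 lower in OVX + RAL, 0% of the genes tested, and the smallest adjusted *p* was 0.404. At an unadjusted *p* under 0.05, 175 genes (4.47%) were reached, 82 with a higher level in OVX + RAL (2.1%) and 93 with a lower one (2.38%). An unadjusted *p* under 0.01 was reached by 29 genes. DESeq2 called 0 genes higher and 1 lower, *Atp8a1*, and limma called 0 of these 3914 genes. Without OVX + RAL replicate 16, edgeR called 2 genes higher, *Tns1* and *Ifi27l2a*, and 1 lower, *Col27a1*. The log2 fold changes, OVX + RAL over OVX + v, had a median of −0.02, and 5% to 95% of them lay between −0.81 and 0.73. The median standard error of a fold change was 0.49, and the common biological coefficient of variation between replicates was 0.504. In bulk RNA of a whole organ, fewer cells of a type and less RNA per cell cannot be told apart.

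**Figure D1:**
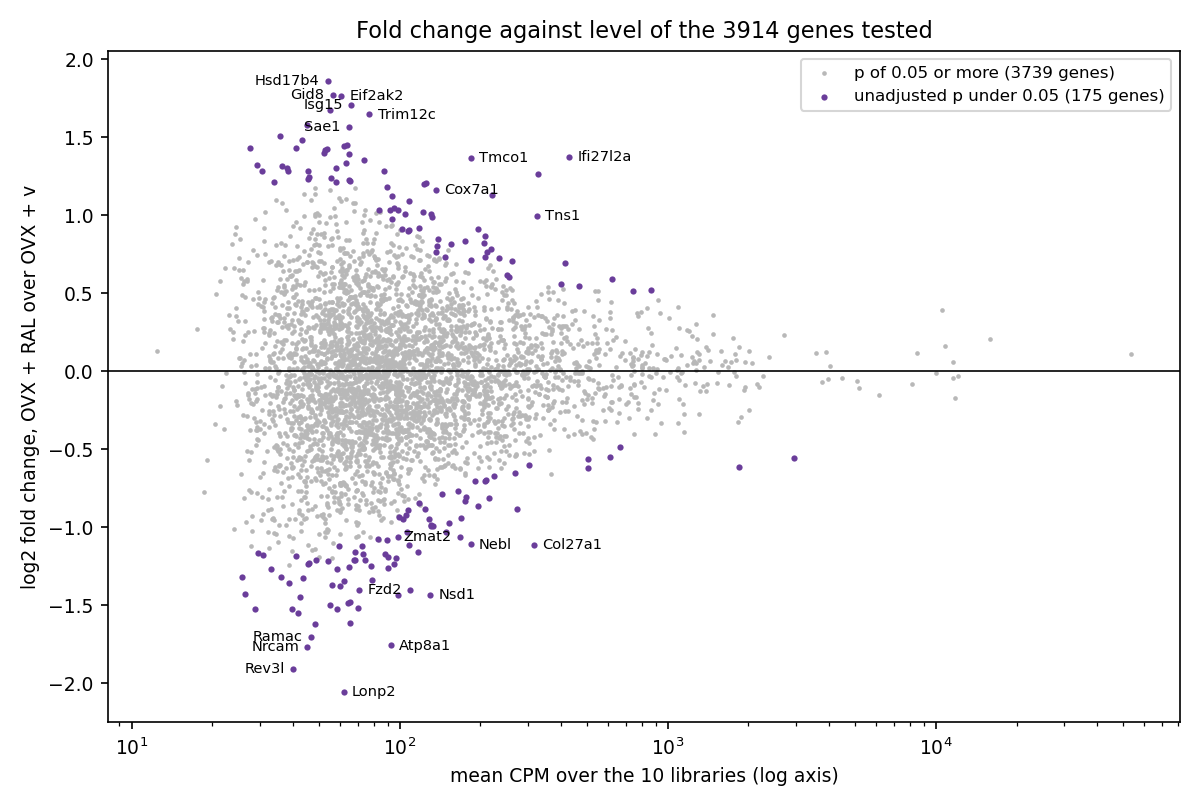
Log2 fold change of OVX + RAL over OVX + v against the mean CPM over the 10 libraries (log axis) for the 3914 genes tested, each point 1 gene, with the 175 genes at an unadjusted p under 0.05 in purple. The 20 named genes are the 10 with the smallest p in each direction. None of them passed an adjusted p of 0.05 by edgeR, while DESeq2 called Atp8a1, and the points spread wider at low levels.

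The gene with the smallest *p* among those with a higher level in OVX + RAL was *Tmco1* (ENSMUSG00000052428, chr1:167135947-167161547 in GRCm39, the build of all coordinates given here), which encodes a calcium channel of the endoplasmic reticulum. Its level was 100.3, 157, 72.6, 114 and 69.0 CPM in OVX + v and at 331, 303, 267, 136 and 289 CPM in OVX + RAL. All OVX + RAL libraries except replicate 19 lay above every OVX + v library. The log2 fold change was 1.37 ± 0.345 (SE), with an adjusted *p* of 0.404 by edgeR, and it lay between 1.25 and 1.57 with each library left out in turn. In the OVX + E2 and sham + v groups, the level was 312 ± 200.4 and 239 ± 116 CPM (SD, n = 5 each), against 103 ± 36.0 CPM in OVX + v. The leading genes were chosen by their difference from these OVX + v libraries, so the levels of the OVX + E2 and sham + v groups, here and for the genes that follow, are a description and no further support.

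*Tns1*, or tensin, links actin to integrins at focal adhesions. It was at 141, 303, 275, 230.3 and 132 CPM in OVX + v and at 147, 501, 436, 529 and 546 CPM in OVX + RAL. Replicate 16 lay within the OVX + v range, and the other OVX + RAL libraries lay above it. OVX + RAL over OVX + v gave a log2 fold change of 1.00 ± 0.307 (SE) with all libraries and 1.22 without replicate 16, where the adjusted *p* by edgeR was 0.0436.

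*Gid8*, a subunit of the CTLH ubiquitin ligase, was at 9.34, 38.9, 21.0, 16.8 and 41.1 CPM in OVX + v and at 94.6, 69.5, 125, 53.5 and 91.3 CPM in OVX + RAL. *Sae1*, a subunit of the enzyme that activates SUMO, was at 26.2, 55.2, 28.9, 16.8 and 36.2 CPM and at 84.9, 89.4, 115, 120.1 and 75.4 CPM, in the same order of groups. For both genes, the groups did not overlap. The log2 fold change of *Gid8* was 1.77 ± 0.571 (SE), with an unadjusted *p* of 0.00325. That of *Sae1* was 1.57 ± 0.537 (SE), with an unadjusted *p* of 0.00533. The OVX + E2 group held 112 ± 60.7 CPM of *Sae1* and 57.9 ± 57.5 CPM of *Gid8* (SD, n = 5).

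*Cox7a1*, the isoform of a cytochrome *c* oxidase subunit typical of heart and muscle, was at 71.0, 137, 96.4, 34.2 and 84.3 CPM in OVX + v and at 166, 286, 147, 160.0 and 186 CPM in OVX + RAL. The groups did not overlap, and replicate 17 was the highest library. Its log2 fold change was 1.16 ± 0.393 (SE), and 0.96 without replicate 17. *Hsd17b4*, a peroxisomal enzyme of fatty acid oxidation that can also oxidize estradiol, was at 6.23, 48.9, 31.2, 7.92 and 22.3 CPM and at 207, 87.8, 25.3, 45.1 and 58.1 CPM. Replicate 16 held the highest value, and the lowest 2 of the OVX + RAL libraries lay within the OVX + v range. Its value of 1.86 ± 0.630 (SE) on the log2 scale was 1.21 without replicate 16. *Ifi27l2a*, *Isg15*, *Trim12c* and *Eif2ak2* were the other 4 of the 10, and they are given with the interferon-stimulated genes.

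Among the genes with a lower level in OVX + RAL, *Col27a1* (ENSMUSG00000045672, chr4:63132241-63253228) had the smallest *p*. It encodes a fibrillar collagen of cartilage and connective tissue. It was at 529, 431, 569, 323 and 317 CPM in OVX + v and at 336, 135, 162, 217 and 155 CPM in OVX + RAL. Replicate 16 overlapped the OVX + v group, and the other 4 lay below it. Its log2 fold change was −1.11 ± 0.289 (SE), with an adjusted *p* of 0.404 by edgeR. Without replicate 16 it was −1.38, with an adjusted *p* of 0.018. The level was 187 ± 77.0 CPM in the OVX + E2 group and 236 ± 69.7 CPM in the sham + v group, against 434 ± 115 CPM in OVX + v and 201 ± 81.6 CPM in OVX + RAL (SD, n = 5 each).

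*Atp8a1* (ENSMUSG00000037685, chr5:67775483-68004777), a flippase that moves phosphatidylserine to the inner leaflet of membranes, was at 148, 169, 118, 181 and 98.9 CPM in OVX + v and at 51.4, 36.1, 30.0, 53.0 and 40.8 CPM in OVX + RAL. The groups did not overlap, and the highest OVX + RAL library lay below the lowest OVX + v library by a wide gap. With a log2 fold change of −1.76 ± 0.460 (SE), it stayed between −1.86 and −1.66 with each library left out in turn. The adjusted *p* was 0.404 by edgeR and 0.00235 by DESeq2. The OVX + E2 group held 98.2 ± 79.8 CPM and the sham + v group 114 ± 88.6 CPM (SD, n = 5 each).

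*Nrcam*, a neuronal cell adhesion molecule found at nodes of Ranvier, was at 61.7, 42.7, 66.9, 97.6 and 80.8 CPM in OVX + v and at 16.5, 19.9, 18.2, 26.2 and 21.6 CPM in OVX + RAL. *Rev3l*, the catalytic subunit of DNA polymerase zeta, was at 93.4, 48.3, 48.7, 52.0 and 73.9 CPM and at 6.69, 6.46, 30.0, 18.9 and 22.1 CPM. Neither gene overlapped between the groups. The log2 fold changes were −1.77 ± 0.556 (SE) for *Nrcam* and −1.91 ± 0.583 (SE) for *Rev3l*. The OVX + RAL values of *Nrcam* stayed within 16.5 to 26.2 CPM, which is 31 to 50 counts in a library.

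*Nsd1*, a histone methyltransferase that binds nuclear receptors, was at 325, 197, 155, 98.1 and 172 CPM in OVX + v and at 31.9, 67.9, 52.9, 100.2 and 97.5 CPM in OVX + RAL. The groups overlapped only in that OVX + v replicate 9 lay just below OVX + RAL replicate 19. *Lonp2*, the peroxisomal Lon protease, was at 103, 119.8, 163, 103 and 8.36 CPM and at 5.66, 39.3, 37.6, 19.9 and 17.3 CPM. Its lowest OVX + v library, replicate 10, lay within the OVX + RAL range, while the other 4 lay far above. The log2 fold change was −1.43 ± 0.413 (SE) for *Nsd1* and −2.06 ± 0.622 (SE) for *Lonp2*, with unadjusted *p* of 0.00113 and 0.00182.

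*Fzd2*, a Frizzled receptor for Wnt ligands, was at 196, 146, 133, 167 and 151 CPM in OVX + v and at 31.4, 21.0, 48.2, 31.0 and 169 CPM in OVX + RAL. Replicate 20 lay within the OVX + v group, and the other 4 OVX + RAL libraries lay far below it. On the log2 scale, the fold change of −1.40 ± 0.475 (SE) was −2.27 without replicate 20. The remaining genes of the 10 were *Nebl*, an actin-binding protein, *Ramac*, a subunit of the mRNA cap methyltransferase, and *Zmat2*, a zinc finger protein of the spliceosome. Their log2 fold changes were −1.11 ± 0.350 (SE), −1.70 ± 0.569 (SE) and −1.06 ± 0.371 (SE). In each of these 3, 4 of 5 OVX + RAL libraries lay below every OVX + v library.

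**Figure D2:**
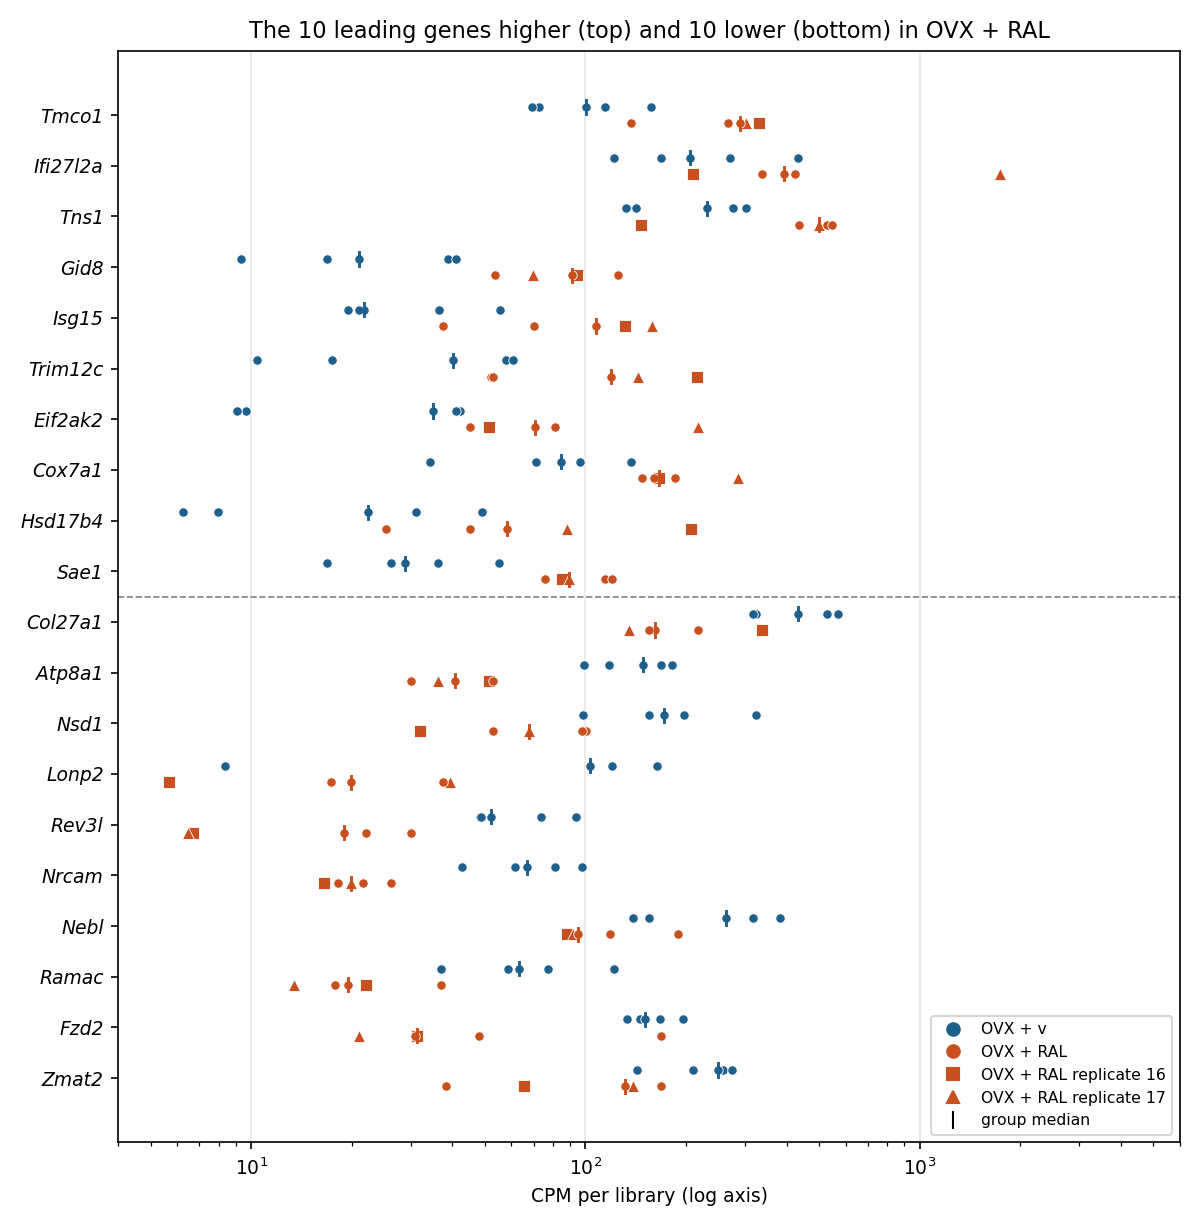
CPM per library (log axis) of the 10 genes with the smallest p in each direction, higher in OVX + RAL above the dashed line and lower below it, with OVX + v in blue, OVX + RAL in orange and short lines at the group medians. Squares mark OVX + RAL replicate 16 and triangles replicate 17. Gid8, Eif2ak2, Cox7a1, Sae1, Atp8a1, Rev3l and Nrcam do not overlap between the groups.

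The groups of 5 and 5 did not overlap in 31 of the 3914 genes (0.792%), 12 with every OVX + RAL library higher (0.307%) and 19 with every OVX + RAL library lower (0.485%). The count is a description and does not show that these genes differ. The 12 were *Gid8*, *Sae1*, *Cox7a1*, *Eif2ak2*, *Glul*, *Ube4b*, *St3gal5*, *Snrnp27*, *Nop53*, *Supt5*, *Spop* and *Atp6v1d*. *Spop*, the substrate adaptor of a cullin ubiquitin ligase, was at 51.7, 68.4, 72.6, 80.7 and 74.6 CPM in OVX + v and at 128, 160.0, 155, 136 and 122 CPM in OVX + RAL. *Glul*, or glutamine synthetase, was at 1063, 804, 906, 948 and 938 CPM and at 1136, 1684, 1099.7, 1064 and 1227 CPM. The gap was wide for *Spop* and under 1 CPM for *Glul*. *Atp6v1d*, a subunit of the vacuolar proton pump, had a range of 102 to 236 CPM in OVX + v and of 243 to 385 CPM in OVX + RAL. *St3gal5*, a sialyltransferase of ganglioside synthesis, had ranges of 132 to 206 CPM and 215 to 500.5 CPM.

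The 19 genes with every OVX + RAL library lower were *Atp8a1*, *Rev3l*, *Nrcam*, *Atp2b2*, *Col11a1*, *Cab39*, *Ssrp1*, *Cdc42se1*, *Fubp1*, *Afap1*, *Msi1*, *Cbx3*, *Itfg1*, *Cwc15*, *Pafah1b2*, *Lrp1*, *Cpd*, *Rapgef5* and *Pbrm1*. *Atp2b2* encodes the plasma membrane calcium pump of hair bundles. It was at 135, 148, 186, 127 and 161 CPM in OVX + v and at 71.0, 81.9, 98.7, 51.9 and 119 CPM in OVX + RAL, with a log2 fold change of −0.84 ± 0.402 (SE) and an unadjusted *p* of 0.0415. *Cpd*, a carboxypeptidase of the trans-Golgi network, was at 209, 176, 225, 191 and 318 CPM and at 133, 127, 140.4, 130.1 and 98.0 CPM. *Pafah1b2*, a subunit of the platelet-activating factor acetylhydrolase, was tightly grouped in OVX + v, at 119.6, 122, 123, 126 and 118 CPM, and spread over 53.0, 105, 32.9, 25.2 and 72.1 CPM in OVX + RAL. *Lrp1*, an endocytic receptor for lipoproteins, ranged over 302 to 419 CPM and 176 to 289.8 CPM. These genes are named because their groups do not overlap, and none of them passed an adjusted *p* of 0.05 by edgeR.

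Interferon-stimulated genes are induced when interferons bind their receptors at the cell surface, and their products restrict viruses and modify proteins. Of 56 genes listed, 12 were among the genes tested. All 12 had a higher mean level in OVX + RAL, and 6 of them had an unadjusted *p* under 0.05, beside 2.1% of all genes tested in that direction. No member passed an adjusted *p* of 0.05 by edgeR. The median log2 fold change of the 12 was 0.72, against −0.02 over all genes tested. Without OVX + RAL replicate 17, the median was 0.45 and 1 of the 12 had an unadjusted *p* under 0.05, beside 1.81% of all genes higher and 2.3% lower at that threshold. Without replicate 16 the median was 0.79, with 6 of 12, beside 2.43% of all genes higher and 2.66% lower. With the minimum of 10 counts summed over the libraries, 53 members were tested and the median was 1.37, against −0.03 over those 14002 genes, also with the 7 members at 0 in every OVX + v library set at the fold that 3 counts over that group allow. These 7 members passed the minimum through OVX + RAL alone and could only be higher, while 0 members were at 0 in every OVX + RAL library. An unadjusted *p* under 0.05 was reached by 19 of the 53, all higher, beside 5.98% of the 14002 genes, and the 7 were not set apart in that count. Without replicate 17 this was 7 of 53, beside 5.18%, with a median of 0.73, an alternative chosen after seeing the data. This list was drawn up with earlier results of these data known, so its count is a description.

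*Isg15* (ENSMUSG00000035692, chr4:156283912-156285253) encodes a ubiquitin-like protein that is attached to other proteins. It was at 21.8, 36.4, 21.0, 55.5 and 19.5 CPM in OVX + v and at 132, 158, 37.6, 108 and 70.1 CPM in OVX + RAL. All OVX + RAL libraries except replicate 18 lay above every OVX + v library. OVX + RAL over OVX + v gave a log2 fold change of 1.71 ± 0.555 (SE), and 1.49 without replicate 17, with unadjusted *p* of 0.00348 and 0.0159. It was the member whose unadjusted *p* stayed under 0.05 without that library.

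*Eif2ak2* (chr17:79159993-79190002) encodes the kinase PKR, which stops translation when it meets double-stranded RNA. It was at 34.9, 42.0, 9.64, 41.1 and 9.06 CPM in OVX + v and at 51.4, 218, 70.5, 81.3 and 45.2 CPM in OVX + RAL. The groups did not overlap, and replicate 17 lay far above the other OVX + RAL libraries. Its log2 fold change was 1.76 ± 0.596 (SE), and 1.18 without replicate 17, with unadjusted *p* of 0.00482 and 0.058. *Trim12c*, an interferon-inducible member of the TRIM family, was not on the list. It was at 17.4, 40.2, 57.8, 10.4 and 60.6 CPM and at 216, 143, 52.3, 119 and 52.8 CPM, with a log2 fold change of 1.65 ± 0.553 (SE). Its highest library was replicate 16, and reads of its close paralogs may be divided between them.

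*Ifi27l2a* (chr12:103408426-103409939) encodes a small interferon-induced membrane protein. It was at 121, 271, 168, 205 and 433 CPM in OVX + v and at 209.9, 1737, 337, 392 and 423 CPM in OVX + RAL. Replicate 17 was the highest library, and the other 4 OVX + RAL libraries lay within the OVX + v range. Its log2 fold change of 1.37 ± 0.361 (SE) was 0.51 without replicate 17, where the unadjusted *p* was 0.127. Without replicate 16 it was 1.59, with an adjusted *p* of 0.0147 by edgeR.

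*Bst2*, or tetherin, holds budding viruses at the cell surface. It was at 174, 84.7, 32.9, 46.6 and 96.2 CPM in OVX + v and at 53.0, 301, 271, 159 and 91.3 CPM in OVX + RAL, with a log2 fold change of 1.01 ± 0.449 (SE). *Ifitm3*, which blocks viral entry from endosomes, was at 677, 584, 347, 829 and 1130.2 CPM and at 742, 1533, 1239, 914 and 685 CPM, with a log2 fold change of 0.52 ± 0.251 (SE). Both genes overlapped between the groups, and replicate 17 was the highest library for each. Without it, *Ifitm3* had a value of 0.33, with an unadjusted *p* of 0.221. *Ifi27* had a log2 fold change of 0.56 ± 0.275 (SE), and 0.38 without replicate 17. *Irf9*, a transcription factor of the interferon response, had a log2 fold change of 0.77 ± 0.541 (SE), with an unadjusted *p* of 0.161, and 0.53 without replicate 17 and 1.403 without OVX + v replicate 10. *Gbp7*, *Ifitm1*, *Ifitm2* and *Lgals3bp* had values of 0.88, 0.67, 0.28 and 0.49, and of 0.21, 0.87, 0.03 and 0.10 without replicate 17. *Ifitm1* was at 1.63 without OVX + v replicate 6, which held 127 CPM against 15.3 to 29.2 CPM in the other 4.

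Replicate 17 of OVX + RAL was the highest of the 10 libraries for 11 of the 12 members, and for 32 of the 53 listed genes with a count in any library. At least 3 counts were found for 46 of the 56 genes in replicate 17, for 35 to 44 in the other OVX + RAL libraries, and for 23 to 37 in OVX + v. The CPM of all 56 genes summed to 8967 in replicate 17 and to 2736, 4105, 4117 and 2589 in replicates 16, 18, 19 and 20. In OVX + v it summed to 2434, 1925, 1532, 2571 and 3187 CPM. Of the other 4 OVX + RAL sums, 2 lay within the OVX + v range and 2 above it. The sum was 1615 to 2859 CPM in the OVX + E2 group and 1666 to 2986 CPM in the sham + v group. The macrophage list, whose cells respond to interferon, summed to 909 CPM in replicate 17 and to 661 to 1014 CPM in the other OVX + RAL libraries. The Schwann cell list summed to 23684 CPM in replicate 16 and to 24813 CPM in replicate 17. The part of these cells in the result was not tested.

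**Figure D3:**
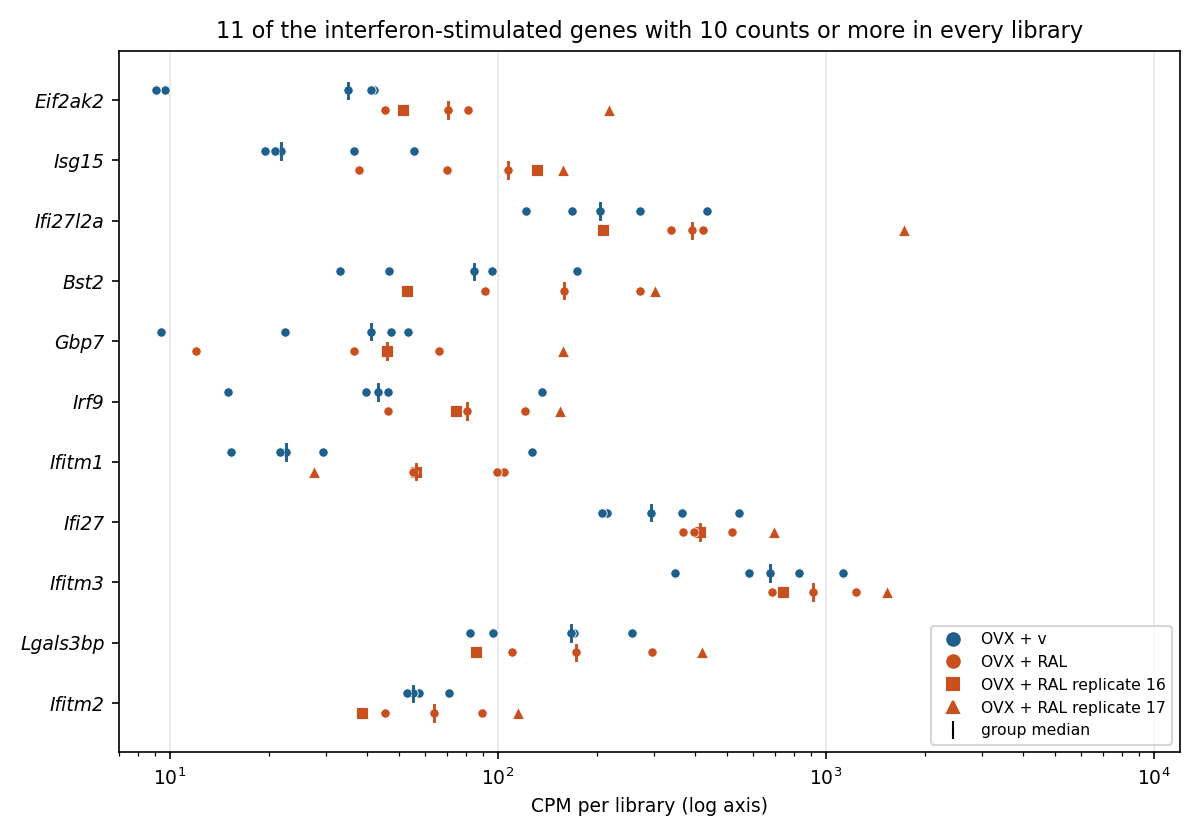
CPM per library (log axis) of 11 of the 12 interferon-stimulated genes tested, ordered by log2 fold change, with OVX + v in blue, OVX + RAL in orange and short lines at the group medians. The triangle, OVX + RAL replicate 17, is the highest point for every gene but Ifitm1. The other OVX + RAL libraries overlap OVX + v for every gene but Eif2ak2.

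The promoters of these genes are shown because most of the members were highest in the same library. The windows are those of RefSeq, from 250 bases before to 50 bases after the start, printed 5′ to 3′ on the strand of the gene. The table is in GRCm38.p6, and each window shown matched 1 place on the gene's strand of its own chromosome in GRCm39. Other chromosomes and the other strand were not searched. Capitals mark GAAANNGAAA, the core of the interferon-stimulated response element, on either strand, where overlapping matches run together. *Isg15* lies at chr4:156285226-156285525 and *Eif2ak2* at chr17:79189952-79190251, both on the minus strand, *Bst2* at chr8:71990067-71990366 on the minus strand and *Ifit3* at chr19:34560679-34560978 on the plus strand.
Isg15: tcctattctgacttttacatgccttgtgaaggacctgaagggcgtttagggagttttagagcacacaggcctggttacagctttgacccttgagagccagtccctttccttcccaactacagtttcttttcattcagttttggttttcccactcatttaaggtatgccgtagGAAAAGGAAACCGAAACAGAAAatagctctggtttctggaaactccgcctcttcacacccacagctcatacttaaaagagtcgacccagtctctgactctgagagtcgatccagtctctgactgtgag
Eif2ak2: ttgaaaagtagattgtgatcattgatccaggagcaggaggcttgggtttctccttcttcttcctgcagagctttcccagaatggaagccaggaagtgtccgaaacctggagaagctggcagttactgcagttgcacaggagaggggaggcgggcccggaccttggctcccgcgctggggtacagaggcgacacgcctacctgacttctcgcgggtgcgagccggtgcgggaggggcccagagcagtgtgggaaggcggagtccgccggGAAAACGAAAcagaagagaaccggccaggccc
Bst2: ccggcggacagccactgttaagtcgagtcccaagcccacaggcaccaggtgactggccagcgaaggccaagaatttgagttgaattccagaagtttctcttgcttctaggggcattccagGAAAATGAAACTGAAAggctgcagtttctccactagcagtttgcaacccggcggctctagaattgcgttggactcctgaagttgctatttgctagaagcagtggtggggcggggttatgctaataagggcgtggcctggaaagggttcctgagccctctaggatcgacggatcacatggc
Ifit3: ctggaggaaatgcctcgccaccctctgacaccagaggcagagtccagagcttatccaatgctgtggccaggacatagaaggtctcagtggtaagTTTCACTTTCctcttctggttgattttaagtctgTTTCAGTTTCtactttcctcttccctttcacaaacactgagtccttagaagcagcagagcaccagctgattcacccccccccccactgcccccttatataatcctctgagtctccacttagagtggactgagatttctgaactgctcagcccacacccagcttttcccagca

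The *Isg15* window held 3 overlapping matches, from base 173, and the *Bst2* window 2, from base 121. The *Ifit3* window held 2 separate matches, from bases 95 and 129, and the *Eif2ak2* window 1, from base 269, after the start. Of the 12 members, 9 were matched by symbol to the promoter table, and 6 of these (66.7%) held the motif, namely *Bst2*, *Eif2ak2*, *Gbp7*, *Ifitm2*, *Ifitm3* and *Isg15*. It was found for 3.87% of the 3125 tested genes matched, and in 3.44% of all 32851 promoters. Of the whole interferon-stimulated list, 42 genes were matched and 21 (50%) held the motif. Its share is thus a trait of the list and no support for the levels in these libraries. Of the 10 leading genes with a higher level, 7 were matched and *Eif2ak2*, *Isg15* and *Trim12c* held the motif. Of the 10 leading genes with a lower level, 6 were matched and *Nebl* held it. The full palindrome of the estrogen response element, GGTCANNNTGACC, was found in 23 of all promoters (0.07%) and in 0 of the 4070 promoters of the tested genes.

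Raloxifene acts through the estrogen receptors, whose own transcripts were near the limit of these libraries. *Esr1*, the alpha receptor, had 27 counts in replicate 7, 3 in replicate 10, 7 in replicate 20 and 0 in the other 7 libraries. *Esr2*, the beta receptor, had 8 counts in replicate 8 and 0 in the other 9. A count of 0 allows up to 1.44 to 2.09 CPM in these libraries, as counting error alone. *Gper1*, the membrane estrogen receptor, and *Pgr*, the progesterone receptor and a classical estrogen target, were at 0 counts in several libraries of each group. These levels do not allow a comparison between the groups.

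Coregulators of the estrogen receptors were measured better. Of 14 receptor and coregulator genes tested, 10 had a higher level in OVX + RAL and 4 a lower one, and 1, *Crebbp*, had an unadjusted *p* under 0.05, beside 2.1% of all genes higher. The median was 0.08. *Crebbp*, the acetyltransferase and coactivator CBP, was at 132, 21.96, 56.7, 62.4 and 99.6 CPM in OVX + v and at 131, 123, 137, 293 and 171 CPM in OVX + RAL. Replicate 19 was far above the others, and the lowest OVX + RAL libraries lay within the OVX + v range. OVX + RAL over OVX + v gave a log2 fold change of 1.20 ± 0.433 (SE), with an unadjusted *p* of 0.00796. Its paralog *Ep300* had a log2 fold change of 0.86 ± 0.616 (SE), which was 0.09 without replicate 17, its highest library, and the corepressor *Safb* one of 0.88 ± 0.505 (SE), which was 1.39 without OVX + v replicate 9. Of 12 estrogen target genes tested, 6 had a higher and 6 a lower level, 0 reached an unadjusted *p* of 0.05, and the median was 0.03. *Igfbp5* was at 651 ± 130.3 CPM in OVX + v and 553 ± 186 CPM in OVX + RAL, and *Ezr* at 178 ± 51.1 and 234 ± 34.7 CPM (SD, n = 5 each).

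Selective estrogen receptor modulators also bind enzymes of sterol synthesis and can gather in lysosomes. Of 19 genes of cholesterol synthesis and uptake, 14 had a lower level in OVX + RAL and 5 a higher one, with 2 at an unadjusted *p* under 0.05, both lower, beside 2.38% of all genes in that direction. The median was −0.20, and −0.36 without replicate 17, where 1 gene, *Hsd17b7*, was lower at an unadjusted *p* under 0.05, beside 2.3% of all genes. *Hsd17b7*, a ketoreductase of sterol demethylation that also makes estradiol from estrone, was at 245, 163, 222, 53.5 and 123 CPM in OVX + v and at 26.2, 67.9, 105, 28.3 and 134 CPM in OVX + RAL. *Msmo1*, the methylsterol monooxygenase, was at 287, 157, 375, 147 and 157 CPM and at 144, 103, 174, 163 and 57.2 CPM. Both overlapped between the groups, with log2 fold changes of −1.16 ± 0.464 (SE) and −0.81 ± 0.360 (SE). The farnesyl diphosphate synthase gene *Fdps* had a value of −0.89 ± 0.556 (SE). Of 26 lysosome genes, 15 had a higher and 11 a lower level, with a median of 0.08 and 1 at an unadjusted *p* under 0.05, higher, beside 2.1% of all genes. *Atp6v1b2*, a subunit of the proton pump that acidifies lysosomes, was at 103, 127, 64.6, 166 and 102 CPM and at 194, 218, 230.3, 106 and 245 CPM, and 4 of 5 OVX + RAL libraries lay above every OVX + v library. The value for *Atp6v1b2* was 0.82 ± 0.362 (SE) on the log2 scale, and without replicate 17 no lysosome gene reached that threshold.

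Oxidative phosphorylation makes ATP in mitochondria, and most of its subunits are encoded in the nucleus. Of 75 nuclear subunit genes tested, 56 had a higher level in OVX + RAL and 19 a lower one, with a median log2 fold change of 0.14 against −0.02 over all genes. An unadjusted *p* under 0.05 was reached by 6, all higher, beside 2.1% of all genes. With 10 counts summed it was 5 of 81 (6.17%), beside 5.98% of all genes higher. Of the 75, there were 7 without replicate 16 and 6 without replicate 17, all higher, beside 2.43% and 1.81% of all genes higher. The median lay between 0.10 and 0.21 with each library left out. *Ndufc2*, a subunit of complex I, was at 199, 282, 131, 156 and 231 CPM in OVX + v and at 285, 336, 244, 411 and 354 CPM in OVX + RAL. In OVX + RAL, 4 of 5 libraries lay above every OVX + v library. The log2 fold change was 0.71 ± 0.292 (SE). *Ndufc1*, *Ndufs7* and the ATP synthase subunit *Atp5l* had values of 0.55 ± 0.257 (SE), 0.76 ± 0.378 (SE) and 0.52 ± 0.222 (SE). The summed CPM of the list was 22925 to 27202 in OVX + v and 21944 to 29980 in OVX + RAL, and the groups overlapped.

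Of the 13 transcripts of the mitochondrial genome, 4 had a higher and 9 a lower level, with *mt-Nd6* and *mt-Nd5* at an unadjusted *p* under 0.05, both lower, beside 2.38% of all genes. *mt-Nd6*, encoded on the light strand, was at 2330.4, 2964, 2310.4, 1249 and 2267 CPM in OVX + v and at 926, 1194, 1689, 1663 and 1784 CPM in OVX + RAL. Only OVX + v replicate 9 lay as low as the OVX + RAL group. The log2 fold changes were −0.62 ± 0.218 (SE) and −0.56 ± 0.239 (SE). Without replicate 16, whose mitochondrial sum was low, they were −0.49 and −0.33, with unadjusted *p* of 0.0135 and 0.069, and the median of the 13 turned from −0.04 to 0.08. The 3′ ends of *mt-Nd6* and *mt-Nd5* overlap on opposite strands. Whether the counting used strand is not given in the sources used here. Of 78 cytosolic ribosomal protein genes, 0 reached an unadjusted *p* of 0.05, and the median was 0.02. Of 34 heat shock and chaperone genes, 0 reached it, with a median of −0.13.

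*Gstp2* is a phase II enzyme that couples glutathione to toxic compounds, and *Gstp1* is its close paralog on chr19:4085407-4087985, next to *Gstp2* on chr19:4090285-4096023. *Gstp2* did not have 10 counts in every library, and was tested with the 14002 genes that had 10 counts summed over the 10 libraries. Its counts were 0, 0, 22, 0 and 0 in OVX + v and 544, 0, 719, 21 and 0 in OVX + RAL. Replicates 16 and 18 held nearly all of them in OVX + RAL, and replicate 8 all of them in OVX + v. The counts of *Gstp1* were 512, 611, 961, 730 and 745 in OVX + v and 211, 396, 0, 650 and 802 in OVX + RAL. The library without *Gstp1*, replicate 18, had the most *Gstp2*, and *Gstp2* took 72.0%, 0%, 100%, 3.13% and 0% of the counts of both genes in the OVX + RAL libraries. The sum of both genes gave a log2 fold change of −0.28 ± 0.261 (SE), with an unadjusted *p* of 0.287 by edgeR. In an exact permutation test over the libraries, two-sided, the *p* was 0.286 for *Gstp2*, 0.0556 for *Gstp1* and 0.254 for the sum, where the design allows 0.00794 at the least. By edgeR, *Gstp2* had a log2 fold change of 5.77, with an adjusted *p* of 1.48e-06, and 4.81 without replicate 18, with an adjusted *p* of 0.105. DESeq2 gave 5.89 with an adjusted *p* of 0.869 for all libraries, and the robust fit 5.77 with 0.421. Limma on log2(CPM + 1) gave *Gstp2* a difference of 3.34 with an adjusted *p* of 0.924, so the fold stayed large where the call was lost. Without OVX + v replicate 8 the adjusted *p* by edgeR was 3.27e-18, and the fitted value of 11 depends on the prior count, since OVX + v is then at 0. *Gstp1*, tested with the same 14002 genes, had a log2 fold change of −1.02 ± 0.351 (SE) by edgeR, with an unadjusted *p* of 0.00396 and an adjusted *p* of 0.402. Limma on log2(CPM + 1) over those genes gave *Gstp1* a difference of −2.40 with an adjusted *p* of 2.13e-06, and without replicate 18 the edgeR value was −0.70. How the reads of near-identical copies were assigned was not tested. For *Amd1* and its copy *Amd2*, enzymes of polyamine synthesis, the sum gave a log2 fold change of −0.31 ± 0.221 (SE), with an unadjusted *p* of 0.166 by edgeR. The difference of the sum in mean log2(CPM + 1) was −0.38, with an exact permutation *p* of 0.103, and 0.206 with TMM.

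Among the 14002 genes with 10 counts summed, edgeR called 3 genes higher (0.0214%) and 1 lower (0.00714%) at an adjusted *p* of 0.05. An unadjusted *p* under 0.05 was reached by 12.1% of them, 5.98% higher and 6.13% lower. The 3 were *Gstp2*, *Ifi27l2a* and *Ifit3*, and the 1 was *Pakap_3*. *Ifit3* (chr19:34560931-34566131), which binds foreign RNA with its partners, was at 66.7, 34.5, 0, 39.6 and 51.6 CPM in OVX + v and at 86.9, 769, 130.4, 197 and 97.0 CPM in OVX + RAL. Every OVX + RAL library lay above every OVX + v library. The log2 fold change was 2.73 ± 0.465 (SE), with an adjusted *p* of 9.08e-05 by edgeR, and 1.73 with an adjusted *p* of 0.555 without replicate 17. The adjusted *p* was 0.61 by DESeq2, 0.411 in the robust fit, 1.0 with the default filter of edgeR and 0.45 with all 20 libraries, each with a log2 fold change between 2.73 and 2.76, while TMM and limma kept the call. The reads of *Ifit3* and its copy *Ifit3b* may be divided between the copies. *Pakap_3* was at 0, 0, 129.8, 99.6 and 9.76 CPM in OVX + v and at 0 in every OVX + RAL library. Its adjusted *p* was 0.011, and 0.598 without OVX + v replicate 8 (edgeR). It was 0.0538 in the robust fit, 0.467 by DESeq2, 0.924 by limma and 0.41 with all 20 libraries. The fitted log2 fold changes by edgeR were −9.42, and −8.62 without replicate 8, and they depend on the prior count, since a group is at 0.

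Of 18 genes of otoconia and the otolithic membrane, 10 had a higher and 8 a lower level, with a median of 0.05. An unadjusted *p* under 0.05 was reached by 2 higher, *Spp1* and *Calb2*, and 1 lower, *Atp2b2*, beside 2.1% and 2.38% of all genes. *Spp1*, or osteopontin, a matrix protein of bone and otoconia, was at 681, 620.5, 329, 590.4 and 248 CPM in OVX + v and at 1515, 610.2, 348, 579 and 664 CPM in OVX + RAL. Replicate 16 held the high value, and the log2 fold change of 0.59 ± 0.286 (SE) was 0.16 without it. *Calb2*, the calcium buffer calretinin of vestibular hair cells and calyx neurons, was at 24.9, 46.4, 26.6, 30.2 and 50.9 CPM and at 242, 102, 53.5, 31.5 and 40.4 CPM. Replicate 16 was again the highest, and the log2 fold change of 1.39 ± 0.575 (SE) was 0.67 without it. *Otog* had a log2 fold change of 0.09 ± 0.230 (SE), whose sign turned with single libraries left out. *Atp2b2*, given above, was the member whose groups did not overlap.

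Of 21 hair cell genes, 8 had a higher and 13 a lower level, with a median of −0.11. *Calb2* and *Spp1*, also on this list, and *Xirp2* had an unadjusted *p* under 0.05, which is 3 of 21 beside 4.47% of all genes, and without replicate 16 there were 0. *Xirp2*, an actin-binding protein of the hair bundle, was at 329, 219, 149, 229 and 111 CPM in OVX + v and at 35.5, 158, 183, 108 and 125 CPM in OVX + RAL, with a log2 fold change of −0.77 ± 0.381 (SE) and overlap between the groups. *Pou4f3* and the synaptic protein *Otof* had values of −0.23 ± 0.337 (SE) and −0.48 ± 0.420 (SE). With 1 library left out, *Pou4f3* ranged from −0.46, without OVX + v replicate 8, to −0.08, without OVX + v replicate 7, and *Otof* was at −0.98 without OVX + RAL replicate 18, its highest library. Of 23 genes of supporting cells and Notch signaling, 8 had a higher and 15 a lower level, and 1 had an unadjusted *p* under 0.05, beside 4.47% of all genes. That gene was *Slc1a3*, a glutamate transporter of supporting cells and glia, which was at 669, 485, 622, 649 and 619 CPM and at 755, 344, 214, 436 and 234 CPM. Replicate 16 was the highest library of all 10, and the other 4 OVX + RAL libraries lay below every OVX + v library. The log2 fold change was −0.62 ± 0.269 (SE), and −0.99 without replicate 16, with unadjusted *p* of 0.026 and 0.000165.

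Of 18 genes for endolymph transport, 12 had a higher and 6 a lower level, with a median of 0.07. The tight junction genes *Cldn4* and *Tjp1*, which seal the epithelium, had an unadjusted *p* under 0.05, which is 2 of 18 lower beside 2.38% of all genes. *Cldn4* was at 57.9, 58.3, 193, 138 and 164 CPM in OVX + v and at 6.69, 26.9, 165, 35.7 and 37.5 CPM in OVX + RAL, where replicate 18 was the exception in an otherwise low group. *Tjp1* was at 129.6, 156, 123, 138 and 109 CPM and at 81.8, 18.9, 38.2, 127 and 75.9 CPM, where replicate 19 was the exception. The log2 fold changes were −1.17 ± 0.562 (SE) and −0.94 ± 0.465 (SE). Without replicate 18 that of *Cldn4* was −2.19. Without replicate 17 the unadjusted *p* were 0.0947 and 0.134, and 0 of 18 were under 0.05. *Gjb2*, a connexin, had a value of −0.27 ± 0.233 (SE), which was −0.08 without OVX + v replicate 9, its highest library.

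Among 18 genes of fibrocytes and collagens, *Mgp* and *Vim* had a higher and *Col11a1*, *Ogn* and *Col15a1* a lower level at an unadjusted *p* under 0.05, beside 2.1% of all genes higher and 2.38% lower. The median was −0.06. *Mgp*, the matrix Gla protein that inhibits calcification, was at 144, 80.3, 139, 179.8 and 137 CPM in OVX + v and at 170.2, 161, 298, 291 and 363 CPM in OVX + RAL. *Col11a1*, a fibrillar collagen, was at 151, 105, 205, 105 and 100.3 CPM and at 85.4, 17.2, 45.8, 68.2 and 66.3 CPM. *Ogn*, a small proteoglycan, was at 109.6, 46.4, 176, 143 and 161 CPM and at 53.5, 34.5, 36.4, 38.8 and 101 CPM. *Col11a1* did not overlap between the groups, while *Mgp* and *Ogn* did. The log2 fold changes were 0.91 ± 0.332 (SE), −1.23 ± 0.472 (SE) and −1.26 ± 0.487 (SE). *Col15a1* and *Vim* had values of −1.34 ± 0.601 (SE) and 0.90 ± 0.433 (SE).

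In the list of antioxidant and phase II genes, 22 of 37 had a higher level, with a median of 0.11, and 1, *Mt2*, had an unadjusted *p* under 0.05, beside 4.47% of all genes. Without replicate 16 there were 3, all higher, beside 2.43% of all genes higher and 2.66% lower. *Mt2*, a metallothionein that is also a glucocorticoid target, was at 502, 302, 214, 399 and 159 CPM in OVX + v and at 464, 486, 241, 566 and 792 CPM in OVX + RAL, with overlap between the groups. Its log2 fold change was 0.69 ± 0.291 (SE), and the OVX + E2 and sham + v groups held 595 ± 205 and 511 ± 205 CPM (SD, n = 5 each). *Prdx1*, a peroxiredoxin, had a value of 0.51 ± 0.267 (SE), and *Selenow*, a selenoprotein, 1.02 ± 0.511 (SE). Of 16 Schwann cell genes, 0 reached an unadjusted *p* of 0.05. *S100b* had a log2 fold change of 0.39 ± 0.236 (SE), and 0.13 without replicate 17. The MHC, osteoclast, macrophage, endothelial, melanocyte, red blood cell, muscle, mucosal and lipophilic carrier lists had 2 to 7 genes tested, with 0 at an unadjusted *p* under 0.05. With 10 counts summed, 7 of 25 muscle genes were higher and 1 lower at that threshold, with a median of 1.20. Of 16 melanocyte genes 4 were higher, and of 12 mucosal genes 2 were higher and 4 lower. Each other list here had at most 2 in a direction. All 14002 genes gave 5.98% higher and 6.13% lower. The muscle sum was 1365 and 871 CPM in OVX + RAL replicates 16 and 17. It was 130 to 340 CPM in the other OVX + RAL libraries and 163 to 649 CPM in OVX + v.

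**Figure D4:**
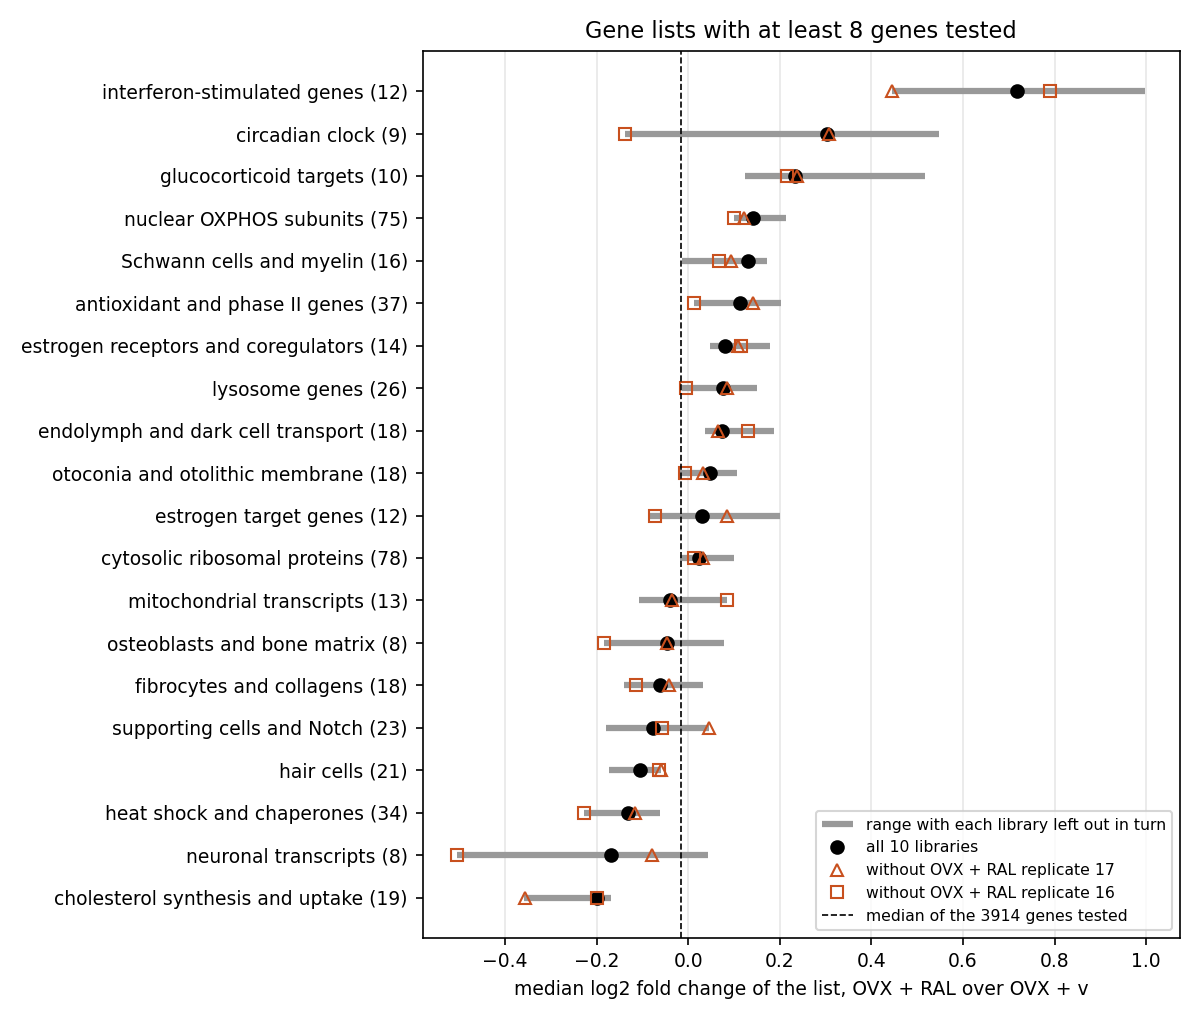
Median log2 fold change of OVX + RAL over OVX + v for each gene list with at least 8 genes tested (number in parentheses), as black points, with a grey bar for the range when each of the 10 libraries was left out in turn, triangles without OVX + RAL replicate 17 and squares without replicate 16. The dashed line is the median of all genes tested. The interferon-stimulated list lies farthest from it, at 0.72, and at 0.45 without replicate 17.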

How the data were processed

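The libraries were prepared from utricle RNA with the QuantSeq 3′ mRNA-Seq kit (FWD) and sequenced on a NextSeq500. Per the study's methods, the authors trimmed adaptors and low-quality ends, removed 12 nucleotides from the 5′ end and reads under 20 nucleotides, and mapped to GRCm39 in CLC Genomics Workbench. The counter's handling of reads that match several genes and the strand setting are not given in the sources used here. The deposited total counts are raw counts of reads per gene, one column per library. The tables also hold CPM, TPM and RPKM values and the authors' own fold changes and p-values, which were not used. A further table of 3 comparisons gave the OVX + E2 counts. There were 0 columns of samples outside the series.

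CPM was computed from each library's total count. OVX + RAL was compared with OVX + v with glmQLFit and glmQLFTest of edgeR 4.0.16 in R 4.3.3, over the 10 libraries, with the total count as library size, for genes with at least 10 counts in each library. The Benjamini-Hochberg adjustment ran over all genes tested, and calls were made at 0.05. The test was run on simulated counts for the genes with 10 counts in every library, not for those with 10 counts summed. A standard error is the size of the log2 fold change over the root of F. Alternatives were TMM scaling, DESeq2 1.42.0, limma 3.58.1 on log2(CPM + 1), the robust fit, other filters on low counts, all 20 libraries in 1 fit, and leaving out each library in turn. Exact permutation tests over the libraries used the difference of mean log2(CPM + 1). Of 20 pairs of replicates, 0 had identical counts. Promoter windows came from the RefSeq table (GRCm38.p6) and were matched to GRCm39 with Python 3.11.15.

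The named genes were the 10 with the smallest p in each direction, the 3 with the smallest p and the most abundant of each of 31 gene lists, genes named by the study, and genes called with 10 counts summed over the libraries. Genes whose groups do not overlap were named as well, and some genes that the rule gives are not reported here. These genes, lists and rules were chosen with earlier results of these data known. Depth limits the precision of low genes, and intervals and floors cover counting error only, since the reads carry no molecular identifiers here.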

Additional observations from a re-analysis of the deposited data

Results flagged for a closer look

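Dixon's test of a single library against the other 4 of its group was run on 140 groups, of which 17 passed its 95% critical value. Chance gives about 7 where the values are normal and the groups independent. The values here were CPM of named genes and sums that hold some of them, so the 17 do not show an excess. In OVX + RAL replicate 17, *Ifi27l2a* was at 1737 CPM against 209.9 to 423 CPM in the other 4, *Eif2ak2* at 218 CPM against 45.2 to 81.3 CPM, *Ifit3* at 769 CPM against 86.9 to 197 CPM, and *Cox7a1* at 286 CPM against 147 to 186 CPM. The summed interferon-stimulated genes were at 8967 CPM in that library, against 2589 to 4117 CPM.

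In OVX + RAL replicate 16, *Tns1* was at 147 CPM against 436 to 546 CPM, and the summed endolymph transport genes were at 28282 CPM against 16034 to 19210 CPM. In OVX + RAL replicate 20, *Fzd2* was at 169 CPM against 21.0 to 48.2 CPM, and *Ogn* at 101 CPM against 34.5 to 53.5 CPM. In OVX + RAL replicate 19, *Crebbp* was at 293 CPM against 123.3 to 171 CPM, and the summed mucosal secretory genes were at 2243 CPM against 278 to 548 CPM.

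In OVX + v, *Gstp2* was at 12.5 CPM in replicate 8 and at 0 in the other 4, and the genes that the study names summed to 1199 CPM in the same library, against 309 to 371 CPM. *Slc1a3* was at 485 CPM in replicate 7 against 619 to 669 CPM. The summed otoconial genes were at 14597 CPM in replicate 10 against 18314 to 18670 CPM. In replicate 9, the summed mucosal secretory genes were at 1012 CPM against 142 to 313 CPM, and the 10 most abundant genes took 14.2% of the counts against 15.4% to 15.6%.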

How the results depend on the processing

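Calls at an adjusted *p* of 0.05 were 0 higher and 0 lower by edgeR, also with TMM, the robust fit, the default filter of edgeR, all 20 libraries in 1 fit, and limma. DESeq2 called 1 gene lower. With 10 counts summed over the libraries, 3 were higher and 1 lower, and with no filter 4 and 1. Leaving out each library gave 0 to 2 higher and 0 to 1 lower, and only the fit without OVX + RAL replicate 16 called any. Unadjusted *p* under 0.05 counted 156 to 202 genes with 1 library left out, 232 by DESeq2 and 54 with all 20 libraries. The groups did not overlap in 81 genes with 10 counts summed, against 31, and in 32 with TMM. The *Gstp1* difference of −2.40 in mean log2(CPM + 1) was −2.37 with TMM, with an exact permutation *p* of 0.0476 against 0.0556. For 106 named genes, 1864 of 1894 alternatives kept the direction and the side of the threshold, 15 lost a call, 7 gained one and 8 turned the direction. With 1 library left out, the log2 fold change ranged from −0.152 to 0.28 for *Apod*, from −0.18 to 0.0103 for *Psap*, from −0.0700 to 0.29 for *Otog*, from −0.0702 to 0.19 for *Ptgds*, from −0.17 to 0.31 for *Slc35b1* and from −5.77 to 0.35 for *Esr1*. List medians moved beyond its spread in 10 of 372 alternatives. The cause of these changes was not tested. The minimum of 10 counts in every library left 3914 of the 14958 genes with a count, and a count of 0 allowed up to 2.09 CPM in the shallowest library.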

Other observations

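In 5 further gene lists, 1 or 2 members each had an unadjusted *p* under 0.05, beside 4.47% of all genes tested, and no member passed an adjusted *p* of 0.05 by edgeR. Of 9 circadian clock genes, 5 had a higher and 4 a lower level in OVX + RAL, and 1 had an unadjusted *p* under 0.05, with a median log2 fold change of 0.30 that was −0.14 without replicate 16 and −0.30 over the 19 members with 10 counts summed. *Hlf*, that gene and a transcription factor of the clock output, was at 129, 224, 146, 69.3 and 148 CPM in OVX + v and at 83.8, 56.6, 139, 26.8 and 44.7 CPM in OVX + RAL, with a log2 fold change of −1.03 ± 0.457 (SE). All but replicates 16 and 18 of OVX + RAL lay below every OVX + v library. Of 10 glucocorticoid target genes, 7 had a higher level, with a median of 0.23, and *Glul* and *Mt2* were among them. *Mt2* was the 1 at an unadjusted *p* under 0.05. Over the 28 members with 10 counts summed, the median was 0.002, with 1 higher and 3 lower at that threshold. The shares of all 14002 genes were 5.98% higher and 6.13% lower.

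Of 4 immediate early genes, all 4 had a higher level in OVX + RAL, and 1 had an unadjusted *p* under 0.05. It was *Ccn2*, a matrix protein induced by mechanical stress and growth factors, which was at 71.6, 15.7, 40.8, 5.45 and 62.0 CPM in OVX + v and at 221, 51.7, 37.0, 54.0 and 92.2 CPM in OVX + RAL. Its log2 fold change of 1.22 ± 0.605 (SE) was 0.59 without replicate 16, which was its highest library. Of 8 osteoblast genes, 2 had an unadjusted *p* under 0.05, *Spp1* and *Bmp6*. *Bmp6*, a bone morphogenetic protein, had a log2 fold change of −1.52 ± 0.594 (SE), which was −0.97 without OVX + v replicate 8, with an unadjusted *p* of 0.103. It was at 37.4, 29.5, 134, 68.3 and 24.4 CPM in OVX + v and 23.1, 8.08, 36.4, 20.5 and 13.9 CPM in OVX + RAL. The groups overlapped for *Ccn2* and *Bmp6*. Of 8 neuronal transcripts, 2 had an unadjusted *p* under 0.05, *Calb2* and *Rbfox3*. *Rbfox3*, the neuronal splicing factor NeuN, had a log2 fold change of −1.18 ± 0.561 (SE), with 4 of 5 OVX + RAL libraries below every OVX + v library.

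Of 8 genes that the study names, 2 were among the genes tested, and *Orc8*, which it also names, is not analysed here. *Mettl16*, an RNA methyltransferase, had a log2 fold change of −0.56 ± 0.599 (SE), which was −1.18 without OVX + RAL replicate 18 and −0.12 without OVX + v replicate 9, and *Slc35b1*, a nucleotide transporter of the endoplasmic reticulum, one of 0.04 ± 0.454 (SE). The OVX + E2 libraries, which share their OVX + v controls with this comparison, held 12.95 ± 12.7 CPM of *Slc35b1*, against 95.6 ± 10.2 CPM in OVX + RAL and 92.9 ± 43.0 CPM in OVX + v (SD, n = 5 each).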
